A study of Mus musculus with 4 samples.

Results

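The genes described here are 32 genes of cholesterol handling, measured in granulosa cells (GCs) of the mouse, the follicle cells that enclose and feed the oocyte. They were taken by symbol, as rows of the count table whose identifier carries a listed name. The rule used no measured value, but the list was drawn up with earlier results of these data known. All 32 were found among the 55385 genes of the table, and all 32 were among the 19259 genes with enough counts to be tested. By role they were 7 enzymes of the mevalonate pathway, 11 enzymes from squalene to cholesterol, 5 genes of the sterol sensor (the SREBP system), 5 genes of uptake and lysosomal release, and 4 genes of storage, transfer and export.

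The question of the comparison was how neurotrophin-4 (NT-4) in the medium changed gene expression in GCs. GCs came from preantral follicles of female Kunming mice, an outbred stock, aged 12 to 14 days, and each follicle was grown singly for 6 days. The NT4 group (2 libraries, NT4 1 and NT4 2) was grown with NT-4 and the Control group (2 libraries, Control 1 and Control 2) without it. Neither group is described as genetically changed, and both shared a medium with follicle-stimulating hormone (FSH), fetuin, insulin, transferrin, selenium and albumin, and serum is not named among its components. The study describes the GC samples of a group as coming from independent experiments but does not say whether samples with the same number shared one. The p-values below rest only on the spread between these 4 libraries, with each gene's spread drawn toward that of other genes. Between 12380023 and 19676005 read pairs were estimated per library on the assumption that 1 pair added about 4 of the deposited counts, which pile up at multiples of 4.

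As background, cells make cholesterol from acetyl-CoA in a long series of steps. The first run of enzymes builds mevalonate and from it farnesyl diphosphate, which also feeds the prenylation of proteins. The second joins farnesyl units into squalene, closes the rings and trims lanosterol to cholesterol. When membranes hold little cholesterol, SCAP carries the precursors of the transcription factors SREBP-1 and SREBP-2 from the endoplasmic reticulum to the Golgi for cleavage, and the freed factors switch on the enzymes. When cholesterol is ample, INSIG proteins hold SCAP back. Oxidized sterols act on another factor, the liver X receptor (LXR), which switches on the exporters ABCA1 and ABCG1. In the follicle, cholesterol is the raw material of steroid hormones, and mouse GCs are known to supply the oocyte, which makes little of its own.

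SREBP binds DNA weakly alone and works beside the general factors NF-Y and Sp1, so the upstream sequences of the genes are shown before their values. RefSeq sequences of build GRCm38.p6 were matched by symbol for 25 of the 32 genes, and the 250 bases before each annotated start were searched on both strands. The letters searched were TCACNCCAC for one form of the sterol element that SREBP binds, CCAAT for the NF-Y box, GGGCGG for the GC box that Sp1 binds, and TCACGTGA for an E-box that SREBP-1 can bind. No motif contains the letters of another. The 6 windows below were chosen because each gene has 1 annotated start, no annotated exon falls in the window, and they cover enzymes of the mevalonate and sterol steps, a receptor regulator and an exporter. Capitals mark the sterol element, the NF-Y box (CCAAT, or ATTGG where it lies on the other strand) and the GC box (GGGCGG or CCGCCC).
Hmgcs1 (HMG-CoA synthase), chr13:119690101-119690350, plus strand: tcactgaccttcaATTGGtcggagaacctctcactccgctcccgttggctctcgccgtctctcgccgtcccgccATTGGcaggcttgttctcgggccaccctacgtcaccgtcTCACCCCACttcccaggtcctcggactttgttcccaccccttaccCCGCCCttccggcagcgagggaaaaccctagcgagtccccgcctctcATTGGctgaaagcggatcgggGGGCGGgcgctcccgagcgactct
Mvd (mevalonate diphosphate decarboxylase), chr8:122443423-122443672, minus strand: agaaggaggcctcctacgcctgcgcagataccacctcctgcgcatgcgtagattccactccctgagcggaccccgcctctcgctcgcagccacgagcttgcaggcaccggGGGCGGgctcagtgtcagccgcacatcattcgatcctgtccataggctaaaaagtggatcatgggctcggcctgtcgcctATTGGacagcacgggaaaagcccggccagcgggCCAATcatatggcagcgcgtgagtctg
Ebp (sterol isomerase), chrX:8193513-8193762, minus strand: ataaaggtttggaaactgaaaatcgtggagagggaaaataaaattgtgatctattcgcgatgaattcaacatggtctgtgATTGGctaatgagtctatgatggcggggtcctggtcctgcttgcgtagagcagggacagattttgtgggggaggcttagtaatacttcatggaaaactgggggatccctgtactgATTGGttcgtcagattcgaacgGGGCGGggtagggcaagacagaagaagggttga
Sc5d (sterol C5-desaturase), chr9:42264301-42264550, minus strand: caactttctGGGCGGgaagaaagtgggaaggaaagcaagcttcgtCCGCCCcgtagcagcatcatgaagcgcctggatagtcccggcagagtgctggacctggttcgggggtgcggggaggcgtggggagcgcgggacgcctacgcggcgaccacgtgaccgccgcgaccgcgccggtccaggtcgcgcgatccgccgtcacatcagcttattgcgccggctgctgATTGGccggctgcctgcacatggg
Mylip (ubiquitin ligase of lipoprotein receptors), chr13:45389492-45389741, plus strand: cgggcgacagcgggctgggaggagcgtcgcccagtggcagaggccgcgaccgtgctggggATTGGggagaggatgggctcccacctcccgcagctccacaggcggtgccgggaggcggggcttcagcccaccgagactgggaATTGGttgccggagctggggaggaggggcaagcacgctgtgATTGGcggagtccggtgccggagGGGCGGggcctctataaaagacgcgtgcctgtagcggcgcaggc
Abca1 (cholesterol exporter), chr4:53159896-53160145, minus strand: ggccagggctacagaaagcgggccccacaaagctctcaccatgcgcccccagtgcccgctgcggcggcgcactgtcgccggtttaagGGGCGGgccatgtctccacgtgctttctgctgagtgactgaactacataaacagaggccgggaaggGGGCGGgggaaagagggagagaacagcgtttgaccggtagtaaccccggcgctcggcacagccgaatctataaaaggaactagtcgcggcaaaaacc

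NF-Y letters were found in 22 of the 25 genes with a window (88.0%), against 39.9% of the 12272 tested genes with one. GC-box letters were also found in 22 (88.0%), against 60.4% of tested genes, and 19 genes held both. All 9 squalene and sterol enzymes with a window held both kinds of letters. These counts were made without removing annotated exons from the windows. Annotated exons covered all 250 bases for Idi1 and Tm7sf2, 214 for Msmo1, and 250 in more than 1 Dhcr7 window. The counts are therefore not of exon-free upstream sequence. The sterol element as spelled here was found in 1 gene, Hmgcs1 (4.0%), against 1.34% of tested genes, and the E-box in 0, against 1.59%. In Hmgcs1 the sterol element lay at −137 to −129 from the start, between NF-Y letters at −176 to −172 and GC letters at −92 to −87. Abca1 held 2 GC boxes and no NF-Y letters. A match of letters is a description of the sequence and not a measured binding site. Genes with several annotated starts, 5 of the 25, had more sequence in which to match.

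**Figure D1:**
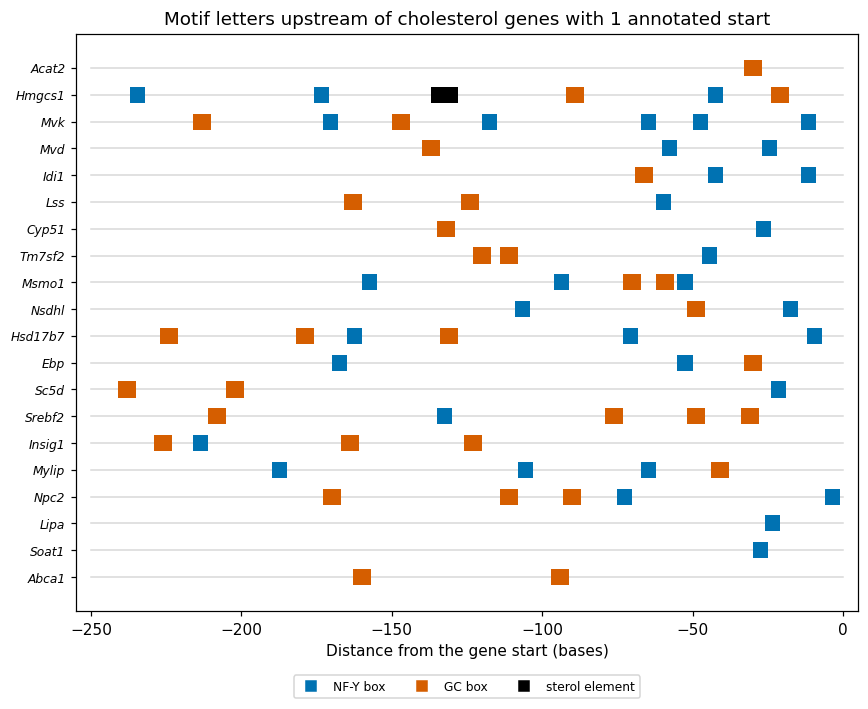
Positions of NF-Y box letters (blue), GC box letters (orange) and sterol element letters (black) in the 250 bases before the start of the 20 genes with 1 annotated start, by distance from that start in bases. Hmgcs1 is the gene with the sterol element, and Abca1 and Acat2 show GC letters without NF-Y letters.

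Levels are given first, as CPM (counts scaled to library totals after TMM, edgeR's correction for composition), with library 1 before library 2 wherever a group has a pair of values. Compared per kilobase of exon, which allows different genes to be set side by side, the 32 genes had a median level of 28.1 CPM per kilobase, against 3.34 over 19236 tested genes with a length. The level of 31 of the 32 lay above that median. Insig1 stood highest at 89.7 CPM per kilobase, followed by Fdps at 76.7, Hmgcs1 at 64.4, Acat2 at 64.2 and Cyp51 at 61.9. The lowest were Npc1 at 5.49, Lipa at 4.90, Mylip at 3.87 and Abcg1 at 0.228 CPM per kilobase. These orders depend on the exon length used: divided by the longest transcript, Msmo1 moved from rank 8 to rank 1 and Scarb1 from rank 14 to rank 5.

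**Figure D2:**
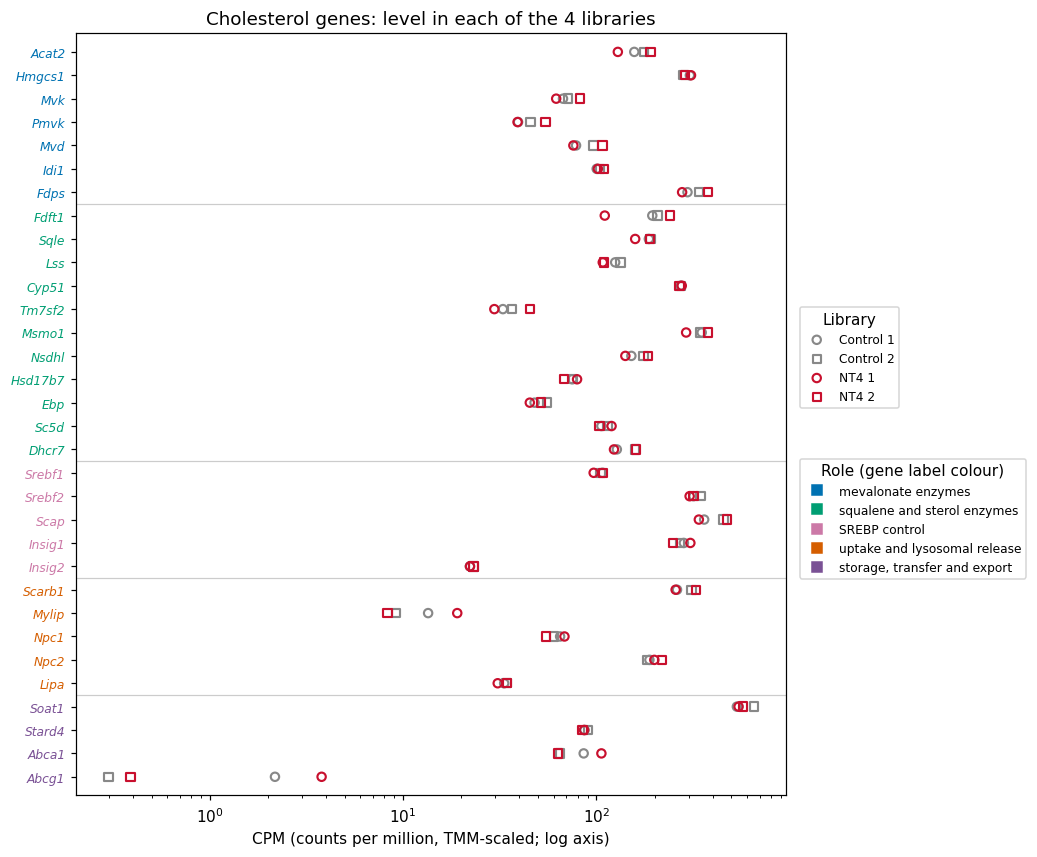
Level of each of the 32 genes in the 4 libraries, in CPM on a log axis, with circles for the libraries numbered 1 and squares for those numbered 2, Control in grey and NT4 in red. Grey and red symbols intermix in 29 genes, all but Npc2, Lss and Stard4, and in Abcg1, Mylip and Abca1 the circles of both groups lie to the right of the squares.

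In the comparison of NT4 with Control, no gene of cholesterol synthesis, uptake or export passed a test, and most had a log2 fold change near 0. By edgeR's quasi-likelihood test 0 of 32 passed an adjusted p of 0.05, as did 0 of all 19259 genes (0.0%), and the smallest adjusted p among the 32 was 0.9999. The study's methods ask for a P under 0.05 and a change beyond 2 times up or 0.5 times down. They also name a Benjamini-Hochberg adjustment and do not call this P unadjusted. Taken here with an unadjusted p, the study's criterion was met by 0 of 32, against 208 of all genes (1.08%). At an unadjusted p under 0.05 alone the count was 0 of 32, against 383 (1.99%). With a term for the replicate number in edgeR's model it was 1 of 32, Lss, against 580 of 19259. At an adjusted p of 0.05, DESeq2's Wald test, run on 27099 genes with no filter, called 62 genes. On the 19259 filtered genes limma voom called 0, so the gene sets differ as well as the methods. None of the 32 was among the genes called. The median log2 fold change of the 32 was −0.0020, against 0.0045 over all genes tested, and without NT4 2 it was −0.13. The median size of the log2 fold change, whatever its sign, was 0.055, against 0.15 for all genes. The 32 were more abundant than most genes, and these sets were not matched on abundance. Of the 32, 31 (96.9%) had a log2 fold change smaller than 0.3 in size, against 70.7% of all genes. For 29 of the 32 the 95% interval of the log2 fold change lay within 1 in either direction, against 11213 of all 19259 genes. A doubling or a halving lay outside these intervals, and Fdft1, Mylip and Abcg1 were the 3 without such an interval.

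Both NT4 libraries lay above both Control libraries in 1 of the 32, against 2574 of all genes (13.4%), and below them in 2, against 2438 (12.7%). The gene above was Npc2 and those below were Lss and Stard4. The count above was 1 under each other scaling or filter run, and the count below ran from 2 to 5. These counts rest on every library. With a library left out, 3 libraries are easier to separate, and the counts above and below were 3 and 6 without Control 1, 4 and 2 without Control 2, 17 and 9 without NT4 1, and 10 and 19 without NT4 2. No share over all genes is given for the other settings, so their counts are not read as a result about the 32.

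**Figure D3:**
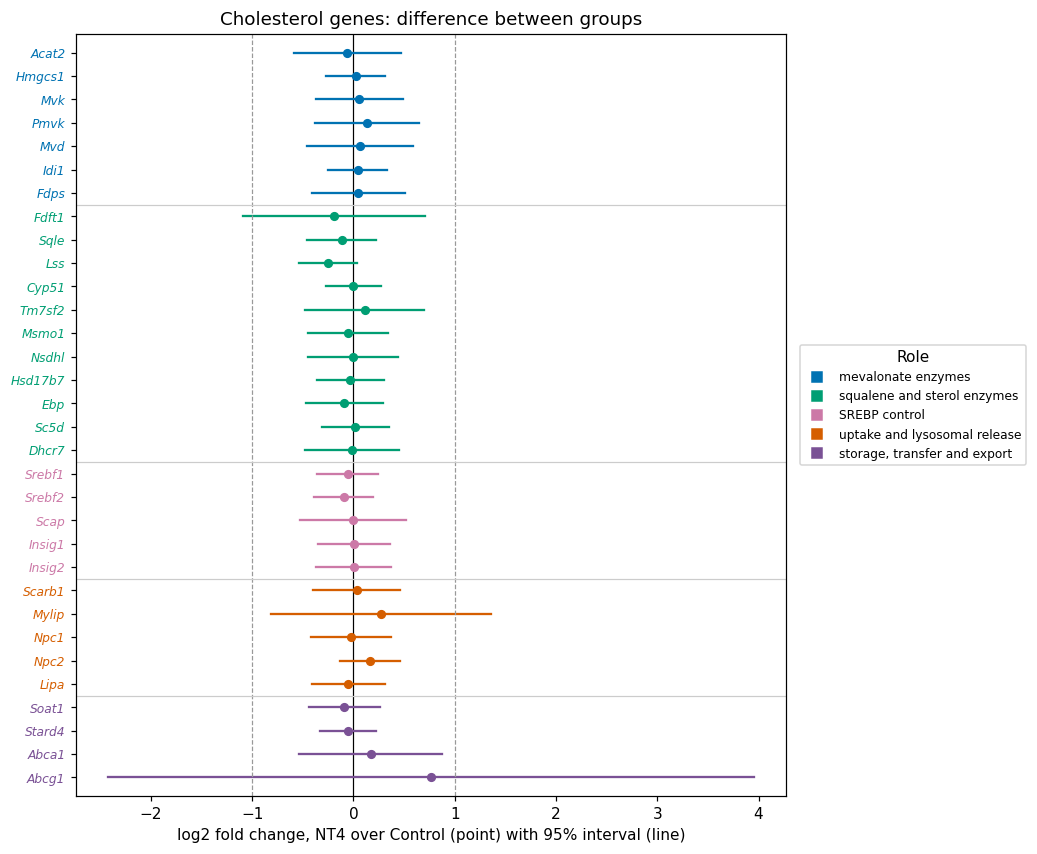
Log2 fold change of NT4 over Control for each of the 32 genes (points) with its 95% interval from edgeR (lines), coloured by role, with dashed lines at a doubling and a halving. All 32 intervals include 0, and that of Abcg1, from −2.42 to 3.96, is the widest.

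The 7 mevalonate enzymes had a median log2 fold change of 0.049, with 6 above 0 and 1 below, and 0 passed the test. Without NT4 2 that median was −0.16 and without NT4 1 it was 0.24. Hmgcs1, which condenses acetyl units into HMG-CoA, had 305 and 282 CPM in Control, 309 and 287 CPM in NT4. The groups overlapped, and its log2 fold change was 0.022 ± 0.12 (SE) with a 95% interval of −0.27 to 0.32. Fdps, which makes farnesyl diphosphate, had 296 and 339 CPM in Control, 278 and 379 CPM in NT4. NT4 2 was the highest library and NT4 1 the lowest, and the log2 fold change was 0.049 ± 0.18. Fdps shares 1124 exon bases on the same strand with Gm43738, a predicted gene counted at 0 to 56, so its counts are uncertain. Acat2, which joins 2 acetyl-CoA molecules, had 157 and 176 CPM in Control, 129 and 191 CPM in NT4, and again both NT4 libraries enclosed both Control libraries. The kinases Mvk and Pmvk, the decarboxylase Mvd and the isomerase Idi1 follow Hmgcs1 in the pathway. Their 4 log2 fold changes ran from 0.043 (Idi1) to 0.14 (Pmvk), with SEs of 0.12 to 0.21. Mvk had 67.2 and 71.4 CPM in Control, 62.0 and 82.4 CPM in NT4, and Pmvk had 39.4 and 45.7 CPM in Control, 39.1 and 54.4 CPM in NT4. Mvd had 78.5 and 96.8 CPM in Control, 76.0 and 107 CPM in NT4, and Idi1 had 100.4 and 105 CPM in Control, 102 and 109 CPM in NT4. In each of these 4 genes the library numbered 2 was the higher one of its group and NT4 2 was the highest of all.

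The 11 squalene and sterol enzymes had a median log2 fold change of −0.030, with 2 above 0 and 9 below, and 0 passed the test. Without NT4 2 that median was −0.21. Lss (chromosome position chr10:76531588-76557138 of GRCm38, as for the positions that follow), which folds squalene epoxide into lanosterol, had 125 and 133 CPM in Control, 108 and 109.9 CPM in NT4. Both NT4 libraries lay below both Control libraries, and the difference within each group was smaller than the gap between the groups. Its log2 fold change was −0.25 ± 0.11, the lowest of the 32, with an interval of −0.53 to 0.038 and an unadjusted p of 0.0768 by edgeR, which is also the smallest of the 32. Without a library it ran from −0.30 to −0.20. With a term for the replicate number the unadjusted p of Lss by edgeR was under 0.05, as for 580 of all 19259 genes. Fdft1, squalene synthase, had 195 and 207 CPM in Control, 111 and 241 CPM in NT4. NT4 1 stood apart at the low end and NT4 2 was the highest, so the log2 fold change of −0.19 ± 0.36 rested on 1 library, since it was 0.26 without NT4 1 and −0.86 without NT4 2. Fdft1 shares 774 exon bases with Ctsb, an abundant protease gene on the opposite strand, and whether counting used strand is not stated. The same limit holds for Hmgcs1, Idi1, Lss, Cyp51, Srebf1, Scap and Npc1, which overlap exons of opposite-strand genes by 90 to 985 bases.

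Sqle, the squalene epoxidase and an early control point of the sterol branch, had 187 and 190.3 CPM in Control, 159 and 189 CPM in NT4. NT4 1 was the lowest, and the other 3 libraries lay close together, with a log2 fold change of −0.12 ± 0.13 that was −0.0030 without NT4 1 and −0.25 without NT4 2. Cyp51, the lanosterol demethylase, had 273 and 274 CPM in Control, 277 and 269.5 CPM in NT4. Its 4 libraries were nearly level, with a log2 fold change of −0.0011 ± 0.11 and an interval of −0.27 to 0.27. Msmo1, the sterol methyl oxidase, had 351 and 343 CPM in Control, 291 and 378 CPM in NT4. Here NT4 1 was lowest, NT4 2 highest, and the groups overlapped. Dhcr7, which makes the last double-bond reduction in one branch, had 128 and 158 CPM in Control, 123 and 160.0 CPM in NT4, and both groups split by replicate number in the same way. The other 5 enzymes were the reductases Tm7sf2 and Hsd17b7, the dehydrogenase Nsdhl, the isomerase Ebp and the desaturase Sc5d. Their log2 fold changes ran from −0.091 (Ebp) to 0.11 (Tm7sf2). Nsdhl had 152 and 176 CPM in Control, 141 and 185 CPM in NT4, and Ebp had 47.9 and 55.4 CPM in Control, 45.2 and 51.7 CPM in NT4. Tm7sf2 had 32.8 and 36.6 CPM in Control, 29.6 and 45.4 CPM in NT4. In these 3 genes the libraries numbered 2 were higher, whereas Hsd17b7, with 75.0 and 75.8 CPM in Control, 79.5 and 68.2 CPM in NT4, and Sc5d, with 106 and 114 CPM in Control, 119.8 and 104 CPM in NT4, had NT4 1 as the highest library. Tm7sf2 shares 532 exon bases on the same strand with Vps51, so its counts are uncertain.

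The 5 genes of the SREBP system had a median log2 fold change of −0.0063, which was −0.13 without NT4 2, and 0 passed the test. Srebf2, which encodes the SREBP that mainly drives cholesterol synthesis, had 318 and 346 CPM in Control, 304 and 319 CPM in NT4. Srebf1, which encodes the SREBP that mainly drives fatty acid synthesis, had 108 and 105 CPM in Control, 96.8 and 108 CPM in NT4. For both genes the groups overlapped, with log2 fold changes of −0.095 ± 0.11 and −0.055 ± 0.12. Scap, the escort of both factors, had 361 and 455 CPM in Control, 339 and 474 CPM in NT4, so the libraries numbered 2 were the higher ones in each group. Insig1, itself a target of SREBP, had 284 and 269.9 CPM in Control, 306 and 249 CPM in NT4, and here the libraries numbered 1 were higher. Insig2, the INSIG that does not depend on SREBP, had 22.2 and 23.1 CPM in Control, 22.2 and 23.1 CPM in NT4. The log2 fold changes of Insig1 (0.0052 ± 0.14) and Insig2 (0.0021 ± 0.15) were so near 0 that their sign changed with the scaling. Protein cleavage and location, which set SREBP activity, were not measured.

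Among the 5 genes of uptake and lysosomal release the median log2 fold change was 0.034, which was 0.10 without NT4 2, and 0 passed the test. Scarb1, the receptor that takes cholesteryl ester from high-density lipoprotein, had 261 and 311 CPM in Control, 257 and 329 CPM in NT4. The groups overlapped and the log2 fold change was 0.034 ± 0.17. Npc2 (chr12:84754562-84773152), the lysosomal protein that binds free cholesterol, had 188 and 184 CPM in Control, 199 and 218 CPM in NT4. Both NT4 libraries lay above both Control libraries, with a log2 fold change of 0.17 ± 0.12, an interval of −0.13 to 0.46 and an unadjusted p of 0.211 by edgeR. It was 0.10 without NT4 2 and 0.22 without NT4 1. Npc1, the membrane protein that takes cholesterol over from Npc2, had 64.9 and 60.4 CPM in Control, 68.4 and 54.8 CPM in NT4, which gives −0.025 ± 0.16. The acid lipase Lipa, which frees cholesterol from its esters, had 33.3 and 34.3 CPM in Control, 30.9 and 34.5 CPM in NT4, with overlapping groups. Mylip (chr13:45389742-45412022), the ubiquitin ligase that marks lipoprotein receptors for breakdown, had 13.5 and 9.18 CPM in Control, 19.1 and 8.29 CPM in NT4. NT4 1 was the highest and NT4 2 the lowest, so that the log2 fold change of 0.27 ± 0.43 was smaller than its error and was −0.46 without NT4 1.

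Among the 4 genes of storage, transfer and export the median log2 fold change was 0.058, which was −0.16 without NT4 1, and 0 passed the test. Soat1, which esterifies cholesterol for storage, had 533 and 655 CPM in Control, 545 and 573 CPM in NT4, and its Control 2 library stood above the others. Stard4, a carrier of cholesterol between membranes, had 86.9 and 90.8 CPM in Control, 86.3 and 84.8 CPM in NT4. Both NT4 libraries were below both Control libraries, but by under 1 CPM at the closest, and the log2 fold change was −0.054 ± 0.11, or −0.017 without Control 2 and −0.091 without Control 1. Abca1 (chr4:53030787-53159895), which loads cholesterol onto lipid-poor apolipoprotein, had 86.0 and 64.9 CPM in Control, 106 and 63.5 CPM in NT4. Abcg1 (chr17:31057675-31117988), which exports cholesterol to formed lipoprotein particles, had 2.17 and 0.298 CPM in Control, 3.79 and 0.389 CPM in NT4. In both exporters the library numbered 1 was the higher one of each group and NT4 1 was the highest of all. The log2 fold changes were 0.17 ± 0.28 and 0.77 ± 1.26. Abcg1 rested on few reads, an estimated 27 and 6 pairs in Control 1 and 2 and 59 and 8 in NT4 1 and 2, and its log2 fold change ran from −1.66 without NT4 1 to 2.79 without Control 1.

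Libraries of the same group were compared next. The median difference of a gene between the Control libraries was 0.11 on the log2 scale and that between the NT4 libraries 0.31, whereas over all genes tested the values were 0.23 and 0.30. In 18 of the 32 both libraries numbered 2 lay above both numbered 1, against 4772 of all genes (24.8%). In 6 of the 32 both numbered 1 lay above both numbered 2, against 4687 (24.3%). These counts were chosen after the values were seen and carry no test. The numbers are names taken from the labels, and no source says that they mark a shared experiment.

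Of the 18 synthesis enzymes, 12 were higher in both libraries numbered 2 and 1, Hmgcs1, was higher in both numbered 1. Scap, Srebf2, Insig2, Scarb1, Lipa and Soat1 were also higher in those numbered 2. The 6 genes in the other direction were Hmgcs1, Insig1, Mylip, Npc1, Abca1 and Abcg1. Their sizes differed widely. Library 1 over library 2 gave a log2 ratio of 2.86 in Control and 3.28 in NT4 for Abcg1, 0.55 and 1.20 for Mylip, and 0.41 and 0.74 for Abca1. For Hmgcs1, Insig1 and Npc1 it lay between 0.072 and 0.32. Abca1, Abcg1 and Mylip are known as targets of LXR. They were singled out after their values were seen, and a part of LXR in the split was not tested. Among other known targets, Scd1 and Fasn were higher in the libraries numbered 2, and Srebf1 and Pltp overlapped between the numbers. Pltp, with 10.6 and 8.73 CPM in Control, 11.5 and 11.1 CPM in NT4, was higher in library 1 within each group. Nr1h3, the gene of LXR alpha, also overlapped, with 1.47 and 1.41 CPM in Control, 1.24 and 1.65 CPM in NT4. Nr1h2, the gene of LXR beta, had 66.4 and 69.9 CPM in Control, 58.0 and 80.0 CPM in NT4, with the libraries numbered 2 higher.

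**Figure D4:**
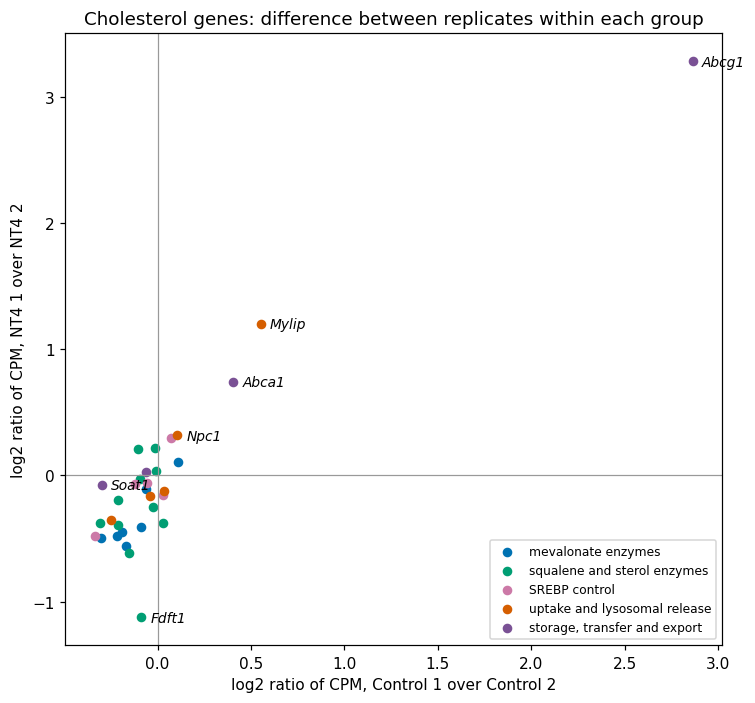
Difference between the replicates of each group for the 32 genes, as the log2 ratio of CPM of library 1 over library 2, in Control on the x axis and in NT4 on the y axis, coloured by role. Most points lie to the lower left of the origin, while Abcg1, Mylip and Abca1 lie farthest to the upper right and Fdft1 lowest.

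Other measures were read by the same numbers. The libraries numbered 2 were the deeper ones, with 73743901 counts in Control and 78704020 in NT4 against 49520092 and 61980073 in those numbered 1. Of 10 granulosa markers, 9 were higher in both libraries numbered 2 and 1 in both numbered 1, against 24.8% and 24.3% of all genes. Cyp19a1, the aromatase that makes estrogen, had 39.7 and 65.5 CPM in Control, 36.6 and 87.0 CPM in NT4. Amh, a hormone of small growing follicles, ran the other way, with 299 and 151 CPM in Control, 391 and 91.5 CPM in NT4. ABCA1 and ABCG1 are abundant in macrophages, and 10 macrophage markers summed to 3.19 and 2.33 CPM in Control and to 4.30 and 3.56 CPM in NT4. That sum was higher in the library numbered 1 of each group, but NT4 2 lay above Control 1. Of the 5 macrophage markers that passed edgeR's filter, 3 were higher in both libraries numbered 1 and 0 in both numbered 2. Among those 3, Csf1r had only 8 and 10 counts in Control, 12 and 6 in NT4. Mrc1 had 19 and 4 counts in Control, 20 and 7 in NT4, so the order of both rests on very few reads. Of 10 oocyte markers, 6 were higher in both libraries numbered 1 and 0 in both numbered 2. Endothelial markers summed to 26.6 and 20.1 CPM in Control and to 30.1 and 21.4 CPM in NT4. Most of that sum was Cdh5, at 21.5 and 16.4 CPM in Control, 25.4 and 18.0 CPM in NT4. Of the 6 endothelial markers, 2 were higher in both libraries numbered 1, against 24.3% of all genes, and 0 in both numbered 2, against 24.8%. The part of depth and of these markers in the split was not tested. In bulk RNA, fewer cells of a type and less RNA per cell cannot be told apart.

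The labelled cell type was checked by marker lists. The 10 granulosa markers were present in all 4 libraries and summed to 11186 to 16109 CPM. Theca and stroma markers summed to 774 and 800.1 CPM in Control 1 and 2 and to 1113 and 964 CPM in NT4 1 and 2, and their log2 fold change was above 0 in 10 of 10, with 7 of the 10 higher in both NT4 libraries, against 13.4% of all genes. Hepatocyte markers summed to 151 and 63.3 CPM in Control and to 65.5 and 69.3 CPM in NT4. Their log2 fold change was below 0 in 10 of 10, with a median of −0.89. In the sum Control 1 was the 1 high library, and Alb and Trf were lower in Control 2 than in both NT4 libraries. By contrast, Ttr had 7.37 and 4.77 CPM in Control, 2.34 and 2.98 CPM in NT4. Serpina1a had 7.63 and 5.68 CPM in Control, 3.75 and 3.76 CPM in NT4. By edgeR 2 of the 10 had an unadjusted p under 0.05, against 1.99% of all genes. The study's criterion, with that p, was met by 1, against 1.08%. Of the 10, 4 were lower in both NT4 libraries, against 12.7% of all genes. Oocyte markers summed to 101 and 72.1 CPM in Control and to 82.5 and 82.8 CPM in NT4. The part of these other cells in the differences of the cholesterol genes between the groups was not tested.

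A wider list of sterol genes and a list of fatty acid genes under SREBP were read beside the 32. Of 37 other sterol pathway genes tested, 0 passed the adjusted p of 0.05 by edgeR and 0 the study's criterion, and the median log2 fold change was 0.012. Both NT4 libraries lay above both Control libraries in 2 of the 37, against 13.4% of all genes, and below them in 5, against 12.7%. The named ones were Pltp, a phospholipid transfer protein (0.23 ± 0.19), Gramd1c, a sterol carrier at membrane contacts (−0.27 ± 0.25), and Lrp1, a large lipoprotein receptor (−0.20 ± 0.14). Lrp1 had 1416 and 1448 CPM in Control, 1391 and 1107 CPM in NT4, and NT4 2 was the low library. Of 18 fatty acid synthesis genes, 0 passed either, and 0 lay above and 2 below, against the same shares, and the median log2 fold change was −0.0096. The counts of both lists were near or under those shares. The 2 below were Agpat2, which makes phosphatidic acid (−0.48 ± 0.23, unadjusted p 0.0845 by edgeR), and Thrsp, a lipogenic regulator at 1.65 to 2.59 CPM (−0.39 ± 0.34). Fasn, the fatty acid synthase, had 508 and 557 CPM in Control, 458 and 521 CPM in NT4, and its groups overlapped.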

How the data were processed

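Bulk RNA of GCs had been sequenced as paired-end reads from dUTP libraries, in 2 Control and 2 NT4 samples. By their methods, the authors cut adaptors with Cutadapt, mapped to the mouse genome (GRCm38, mm10 per the labels) with HISAT2 and estimated expression with StringTie and ballgown. What the authors deposited are expected counts per gene, whole and not normalized. The step from StringTie to counts is not given in the sources used here. Of genes counted from 1 to 12, 45.4% to 46.2% per library sat at 4, 8 or 12, so estimates of read pairs assume about 4 counts a pair.

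The test was edgeR's quasi-likelihood test (edgeR 4.0.16 in R 4.3.3), with TMM scaling, its default filter and Benjamini-Hochberg adjustment over 19259 genes, and the group as the only term. Tests were two-sided, errors of log2 fold changes are standard errors (SE), and the procedure was tested on simulated data. With 2 libraries against 2, the p-values lean on the spread shared between genes. Symbols were matched for 55144 of 55385 identifiers, and exon lengths and overlaps came from GENCODE M21. The genes named were the 32 and, from each other list, up to 2 at each end of the log2 fold change with a mean of at least 1 CPM and no overlap of groups. Members and lists were chosen with earlier results of these data known. Gpam, Mid1ip1, Fasn, Scd1, the LXR genes and the markers named singly were chosen after their values were seen. Those markers were Cyp19a1, Amh, Csf1r, Mrc1, Cdh5, Alb, Trf, Ttr and Serpina1a. Alternatives were other scalings and filters, DESeq2 1.42.0, limma voom (limma 3.58.1), counts divided by 4, a replicate block and leaving out each library.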

Additional observations from a re-analysis of the deposited data

How the results depend on the processing

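Of 256 values of the 32 genes under the 8 alternatives that keep all libraries, 247 kept the sign of their log2 fold change and 9 did not, and 0 passed an adjusted p of 0.05. The 9 were log2 fold changes of Insig1, at −0.014 with library totals, −0.0029 with limma voom and −0.0021 with the replicate block, and of Insig2, at −0.019 with library totals, −0.0019 with DESeq2 size factors, −0.00036 with no filter, −0.0027 with the filter at a CPM of 1, −0.00022 with the DESeq2 Wald test and −0.0012 with counts divided by 4. The genes below in both NT4 libraries numbered 5 with library totals, 4 with the filter at a CPM of 1 and 4 with counts divided by 4, and 2 to 19 with a library left out, and those above 3 to 17. These 2 counts compare scaled CPM, and limma voom and the block share the scaling of the main test, so they have no values of their own. No share over all genes is given beside the counts at these other settings, so they are not read as a result about the 32.

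With a library left out, the sign changed in 27 of the 32 genes, and the log2 fold changes ran as follows: Acat2 −0.37 to 0.19, Hmgcs1 −0.039 to 0.072, Mvk −0.16 to 0.24, Pmvk −0.12 to 0.35, Mvd −0.21 to 0.29, Idi1 −0.012 to 0.087, Fdps −0.19 to 0.25, Fdft1 −0.86 to 0.26, Cyp51 −0.027 to 0.016, Tm7sf2 −0.23 to 0.38, Msmo1 −0.25 to 0.12, Nsdhl −0.21 to 0.17, Hsd17b7 −0.15 to 0.075, Ebp −0.20 to 0.023, Sc5d −0.097 to 0.12, Dhcr7 −0.21 to 0.16, Srebf1 −0.14 to 0.015, Scap −0.27 to 0.21, Insig1 −0.16 to 0.15, Insig2 −0.032 to 0.037, Scarb1 −0.16 to 0.19, Mylip −0.46 to 0.75, Npc1 −0.20 to 0.13, Lipa −0.13 to 0.022, Soat1 −0.23 to 0.072, Abca1 −0.25 to 0.49, Abcg1 −1.66 to 2.79. The other 5 kept their sign: Sqle −0.25 to −0.0030, Lss −0.30 to −0.20, Srebf2 −0.16 to −0.028, Npc2 0.10 to 0.22, Stard4 −0.091 to −0.017. The median of the 32 ran from −0.13 to 0.024, and the medians by role from −0.16 to 0.24 (mevalonate), −0.21 to 0.0069 (squalene and sterol), −0.13 to 0.015 (SREBP), 0.022 to 0.10 (uptake) and −0.16 to 0.23 (storage and export). Over all genes, edgeR called 0 genes at an adjusted p of 0.05. With no filter, over 27099 genes, edgeR called 10 and the DESeq2 Wald test 62. No member was among them. A fit without a library leaves 1 library in its group and takes its spread from the other group. Only log2 fold changes are therefore given for those fits. Same-numbered libraries deviated together with a Pearson correlation of 0.14 over 19259 genes and of 0.31 over the 10491 genes that averaged a log2 CPM above 3, and with 2 pairs this does not show that the numbers pair the samples. With the replicate block edgeR called 0 genes at an adjusted p of 0.05. There 1 of the 32, Lss, had an unadjusted p under 0.05, at a log2 fold change of −0.25, against 580 of all 19259 genes. Abcg1 had the fewest reads of the 32, an estimated 6 to 59 read pairs a library.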

Other observations

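Among the fatty acid genes under SREBP, 2 stood well apart between replicate numbers in both groups, and were singled out after their values were seen. Gpam, which starts the synthesis of glycerolipids, had 167 and 335 CPM in Control, 169.7 and 330.3 CPM in NT4. Mid1ip1, a partner of acetyl-CoA carboxylase, had 438 and 186 CPM in Control, 421 and 196 CPM in NT4. The libraries numbered 2 were the higher ones for Gpam and the lower ones for Mid1ip1 in both groups, and the log2 fold changes of NT4 over Control were −0.0043 ± 0.43 and −0.015 ± 0.51. Over the 18 fatty acid genes, 11 were higher in both libraries numbered 2 and 2 in both numbered 1, and over the 37 other sterol genes 16 and 7. Over all genes tested the shares were 24.8% and 24.3%.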
